A study of Mus musculus with 2 samples.

Results

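The DRACH sites found in both tissues are single adenosines that carry the letters of the m6A consensus in the mouse reference and that appear in the cerebellum list and in the cerebrum list of the same GLORI experiment. Members were chosen by their presence in both lists of called sites, with the same chromosome, position and strand, and by a reference 5-mer that matches DRACH (D stands for any base but C, R for a purine, H for any base but G) with the site at its centre. There were 39903 such sites among 219409 positions listed in either library, and among 97387 DRACH positions listed in either library. Members made up 80.98% of the 49274 cerebellum DRACH sites and 45.3% of the 88016 cerebrum DRACH sites. These counts follow from the rule and are given as a description. A further 9371 DRACH sites stood in the cerebellum list only and 48113 in the cerebrum list only.

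GLORI treats RNA with glyoxal and nitrite, which deaminate adenosines that are not methylated, so that these are read as G while m6A is still read as A. Poly(A) RNA of 1 cerebellum and 1 cerebrum was treated, both labelled female, postnatal day 0 and F1r, the hybrids of a C57BL/6J mother and a PWK/PhJ father. Per the study's methods both tissues came from 1 mouse, so the libraries share the animal as well as the treatment, age, sex and cross, and they differ in tissue. With 1 library for each tissue there is no replicate error, so no difference was tested. Shares are given with 95% Wilson intervals, which cover counting error over sites only, and with the range over the 19 autosomes where that helps. The lists hold positions that passed the authors' minimum methylation rate and read count, without the rate or the reads behind a site. The read depth, and the values just inside and just outside that threshold, are therefore unknown here, and a position missing from a list may have been unmethylated, unexpressed or too thinly covered.

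m6A is the most abundant internal modification of mRNA and is placed cotranscriptionally by a complex around the methyltransferase Mettl3 and its partner Mettl14, with Wtap, Virma, Zc3h13, Cbll1 and the RNA-binding proteins Rbm15 and Rbm15b as further subunits. The complex prefers DRACH, but most DRACH adenosines of an mRNA stay unmethylated. In the brain the mark is bound by YTH-domain proteins, which steer mRNA decay, localisation and translation during neurogenesis and axon growth.

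To show what members look like, 1 example is printed for each of the 6 most frequent 5-mers, taken from the genes with the most members where possible. All sequences here are 5′ to 3′ on the transcribed strand of the GRCm38 (mm10) RefSeq genome, with T in place of the U of RNA, and in this set the capitals mark the DRACH 5-mer with the member adenosine at its centre.
Nsd1 GGACT: tagcccatggGGACTtgtggttgtg
Nsd1 GAACT: tcaacactcaGAACTcttttgacat
Zfhx3 AGACT: tttcaaaactAGACTaactgcaatt
Son GGACA: gagaccttcaGGACAtgctatctca
Ptprz1 TGACT: atgatgatgaTGACTatgatgacat
Zfhx4 AAACT: aagcctggtaAAACTgtgacttttc
The first 2 lie next to each other in the 3′ UTR of Nsd1, a histone lysine methyltransferase gene, at chr13:55313882-55313906 and chr13:55313857-55313881, 166 and 141 nt after the stop codon in exon 23 of 23. The Zfhx3 site (chr8:108957162-108957186) and the Zfhx4 site (chr3:5413606-5413630) lie in the 3′ UTR of 2 homeodomain zinc finger factor genes, 72 and 471 nt after the stop codon. The Son site (chr16:91658284-91658308) is in the coding part of exon 3 of 12 of a splicing-speckle protein gene, and the Ptprz1 site (chr6:23002201-23002225) is in the coding part of exon 12 of 30 of a receptor phosphatase gene of radial glia and oligodendrocyte precursors. All 6 lie on the plus strand. Each had 5 or 6 other members within 100 nt, which follows from the choice. For each 5-mer the site with the most such neighbours was taken, so these examples are not typical in this respect.

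Some members lay close together. To show this, 7 windows of 30 nt that lie inside 1 exon and hold 4 members are printed next, 1 for each gene, with every member adenosine in capitals.
Lmtk3: tcttggaActgaActgaAccgaActctttt
Clmp: aaActgtctgActtagagtggActtgActt
Larp1: ActtggActgactagaActttcctcgagAc
Elmo1: atgActttgtctatgActgtaActgaActg
Mical3: aatcaaActggActttggAcaggAccttca
Agap2: AccttggAcaatagtgActtacacccaggA
Nsd1: agaAcactgctaagAcagActttgagActc
These windows lie in the 3′ UTR of Lmtk3 (chr7:45803914-45803943, plus), of Larp1 (chr11:58059745-58059774, plus), which encodes an RNA-binding regulator of translation, and of Mical3 (chr6:120932712-120932741, minus), which encodes an actin-regulating oxidase. The windows of the adhesion molecule Clmp (chr9:40782600-40782629, plus) and of Elmo1 (chr13:20605274-20605303, plus), which acts in Rac activation, have their first member in the coding sequence, 8 and 22 nt before the last base of the stop codon. Those of Agap2 (chr10:127080429-127080458, plus) and Nsd1 (chr13:55246002-55246031, plus) are coding, in exon 1 of 19 and exon 5 of 23.

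Of 16 forebrain markers 16 had DRACH sites in the cerebrum list and 8 in the cerebellum list, while of 16 hindbrain markers 7 had DRACH sites in the cerebellum list and 4 in the cerebrum list. Of all 20714 coding genes with a complete model 9382 had DRACH sites in the cerebrum list and 7290 in the cerebellum list, and 6592 (31.8%) carried a member. The cerebrum list is also longer, at 88016 DRACH sites against 49274. Cbln1 and Gbx2 of the hindbrain list had more in the cerebrum list, at 15 against 11 and 2 against 1, and Zic1 had 14 in both. Atoh1, Pcp2, Calb1 and Skor2, markers of granule cell precursors and Purkinje cells, had none in either list. En1, En2 and Barhl1, transcription factor genes of the midbrain-hindbrain boundary and of cerebellar granule cells, had 5, 8 and 11 DRACH sites in the cerebellum list and 0 in the cerebrum list. Tbr1 and Dlx1, transcription factor genes of the forebrain, had 16 and 26 in the cerebrum list and 0 in the cerebellum list. None of these 5 genes can hold a member by the rule. Of 16 hindbrain markers 4 had members, with Zic1 at 13 and Cbln1 at 10, and of 16 forebrain markers 8 did, with Bcl11b at 22 and Nr4a2 at 11. Snap25, Fabp7 and Sox10, markers of neurons, radial glia and the oligodendrocyte lineage, had 0 members, while Tubb3, Slc1a3 and Olig1 of the same lists had 9, 8 and 6. Of 5 microglia markers 2 had members, with 1 each in Cx3cr1 and P2ry12, of 5 endothelium markers Kdr and Cdh5 had 3 each and Flt1 had 1, and of 3 globin genes none did. In libraries labelled female, 8 members lay on chromosome Y, 7 of them in the gene model Gm37158, and 2 lay in the mitochondrial genome.

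All 18 DRACH 5-mers occurred among the members. GGACT led with 5606 sites, 14.05% of members (13.7% to 14.4%), followed by GAACT with 5567, AGACT with 5333, GGACA with 4207, TGACT with 3988 and AAACT with 3567. The least frequent were TAACC with 25 and TAACA with 142. T followed the AC core in 63.2% of members, A in 26.01% and C in 10.8%.

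Frequency among members also depends on how common a 5-mer is, so the DRACH adenosines of the carrying transcripts were counted as well. A total of 36729 members lay on exons of 6788 coding transcripts with complete models, which hold 617476 DRACH adenosines, so 5.95% of DRACH adenosines of transcripts that carry a member were listed in both libraries. This base share is raised by the choice of transcripts. Of 32288 GGACT adenosines 15.95% were listed in both (15.6% to 16.4%; 9.82% against transcripts with any listed site), of GAACT 14.8%, of AGACT 13.2%, of TGACT 10.3%, of GGACA 9.48% and of AAACT 8.18%. At the low end stood AAACC at 0.426%, from 141 of 33095, and TAACC at 0.120%, from 19 of 15808. The intervals of the 3 highest 5-mers, which cover counting error only, do not overlap one another. GGACT differed by region, with 22.4% listed in both in 3′ UTRs, 11.4% in coding sequence and 7.57% in 5′ UTRs, whereas TGACT had 10.8% in 3′ UTRs and 10.03% in coding sequence, and AAACT had 7.68% in 3′ UTRs and 9.13% in coding sequence.

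The share found again in the other tissue also differed by 5-mer. Of cerebellum GGACT sites 86.9% stood in the cerebrum list as well (86.0% to 87.7%), against 65.7% of AAACA, 58.0% of TGACC, 48.6% of TAACA, 46.9% of AAACC and 26.6% of TAACC sites. In the other direction 47.6% of cerebrum GGACT sites and 50.0% of cerebrum GAACT sites stood in the cerebellum list, against 11.4% of cerebrum TAACC sites. These shares come from the same lists that define the members and describe them without a test.

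Of all members 92.0% (91.8% to 92.3%) lay on exons of coding transcripts, with 4.60% on other exons, 1.93% in introns, 0.346% antisense to a gene and 1.07% outside annotated genes. Single-library sites were less often on coding exons, at 77.0% in the cerebellum list and 79.7% in the cerebrum list, and more often intronic, at 12.7% and 10.4%. Of intronic DRACH sites in the cerebellum list 39.3% were members, against 83.6% of those on coding exons.

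On coding transcripts 20661 members, 56.3% (55.7% to 56.8%), were in 3′ UTRs, 15079 (41.1%) in coding sequence and 989 (2.69%) in 5′ UTRs. Over the autosomes the 3′ UTR share ranged from 49.9% to 61.3%. Because 3′ UTRs hold 48.8% of the DRACH adenosines of these transcripts, the 3′ UTR share was 1.15 times that of the adenosines, and the 5′ UTR share was 0.567 times theirs. Last exons held 71.2% of members and 55.6% of DRACH adenosines, a fold of 1.28. Cerebellum-only sites were at 62.5% in 3′ UTRs and cerebrum-only sites at 55.2%.

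The share of DRACH adenosines listed in both libraries lay between 3.96% and 4.52% in each 50 nt from 1000 to 300 nt before the stop codon. Where the coding sequence is shorter than that, these steps include 5′ UTR adenosines. The share was 6.17% from 200 to 150 nt before the stop codon and 11.6% in the last 50 nt of the coding sequence. It reached 17.8% in the first 50 nt of the 3′ UTR, 20.4% in the next 50 nt and 20.7% (19.8% to 21.7%) between 100 and 150 nt after the stop codon. It then fell to 9.92% between 450 and 500 nt and to 5.64% between 950 and 1000 nt. Up to 200 nt before or after the stop codon lay 22.6% of members and 9.51% of DRACH adenosines, a fold of 2.37. The share there was 18.8% for cerebellum-only sites (17.9% to 19.7%) and 21.5% for cerebrum-only sites (21.1% to 22.0%). The interval for members was 22.1% to 23.0%. Over the autosomes the share ranged from 18.9% to 28.0% for members, from 14.1% to 25.1% for cerebellum-only sites and from 17.5% to 24.2% for cerebrum-only sites. These ranges overlap, and the difference was not tested.

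**Figure D1:**
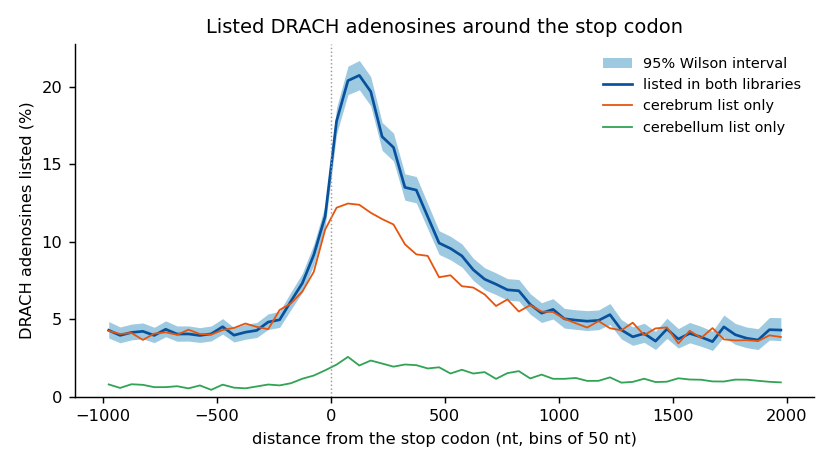
Percent of DRACH adenosines of the carrying transcripts that were listed in both libraries (dark line, band is the 95% Wilson interval), in the cerebrum list only or in the cerebellum list only, in bins of 50 nt by distance from the last base of the stop codon. Negative is upstream, which is coding sequence, or 5′ UTR where the coding sequence is shorter. The share listed in both peaks at 20.7% between 100 and 150 nt after the stop codon, where it stands above the cerebrum-only line. Both lines run close together far from the stop codon. Transcripts without a member are left out, which raises the line for both libraries against the others. Within 200 nt of the stop codon lay 8286 members. Cerebrum-only sites there numbered 5942 on carrying transcripts and 8262 on all coding transcripts.

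Members were scarce near splice junctions. In transcripts with more than 1 exon 6.199% of members (5.953% to 6.45%) lay within 100 nt of an exon-exon junction, against 34.4% of DRACH adenosines, a fold of 0.180. Sites of a single library were closer to junctions, with 11.2% of cerebellum-only sites and 10.6% of cerebrum-only sites within 100 nt, and neither interval reaches that of the members. On each of the autosomes the share for members was between 4.84% and 7.25%.

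The gradient was steep in internal exons. Of 73233 DRACH adenosines up to 25 nt from a junction 0.156% were listed in both, and the share was 0.305% at 25 to 50 nt, 0.989% at 50 to 75 nt, 3.02% at 75 to 100 nt, 9.52% at 100 to 150 nt and 15.5% at 150 to 200 nt. It then levelled between 14.9% and 18.2%. In last exons, which have a junction on the upstream side only, the share was 1.93% up to 25 nt and 11.9% at 75 to 100 nt, above internal exons at the same distances, and it peaked at 19.8% between 200 and 300 nt. Within the GGACT 5-mer the order was the same, at 0.761% up to 25 nt from a junction, 10.01% at 75 to 100 nt and 35.4% at 150 to 200 nt in internal exons.

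**Figure D2:**
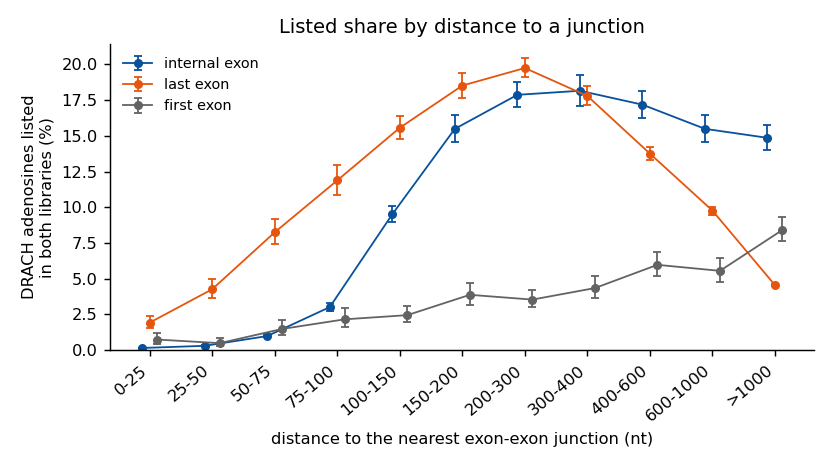
Percent of DRACH adenosines listed in both libraries, with 95% Wilson intervals, by distance to the nearest exon-exon junction for internal, last and first exons of the carrying transcripts. Internal exons start at 0.156% and level off from 150 to 200 nt, last exons peak at 19.8% at 200 to 300 nt and fall again, and first exons stay under 9%.

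Exon length followed the same pattern. In the carrying transcripts internal exons up to 100 nt long held 36223 DRACH adenosines, of which 16 were members, a share of 0.0442% (0.0272% to 0.0717%). The share was 0.178% in exons of 150 to 200 nt, 1.17% at 200 to 300 nt, 6.21% at 300 to 400 nt, 11.3% at 400 to 600 nt and 15.0% at 600 to 1000 nt, and it did not exceed 15.7% in longer exons. In these transcripts 132 of 51765 internal exons up to 200 nt long with a DRACH adenosine carried a member (0.255%). Of 676 internal exons over 1000 nt 595 did (88.0%). Exons of transcripts without a member were not counted, so these shares are raised by the choice of transcripts. Of the members in internal exons 88.8% lay in exons over 400 nt, against 67.5% of cerebellum-only and 73.2% of cerebrum-only sites. Of cerebellum DRACH sites in internal exons up to 200 nt 37.1% were found in the cerebrum list, against 88.2% in internal exons over 400 nt.

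**Figure D3:**
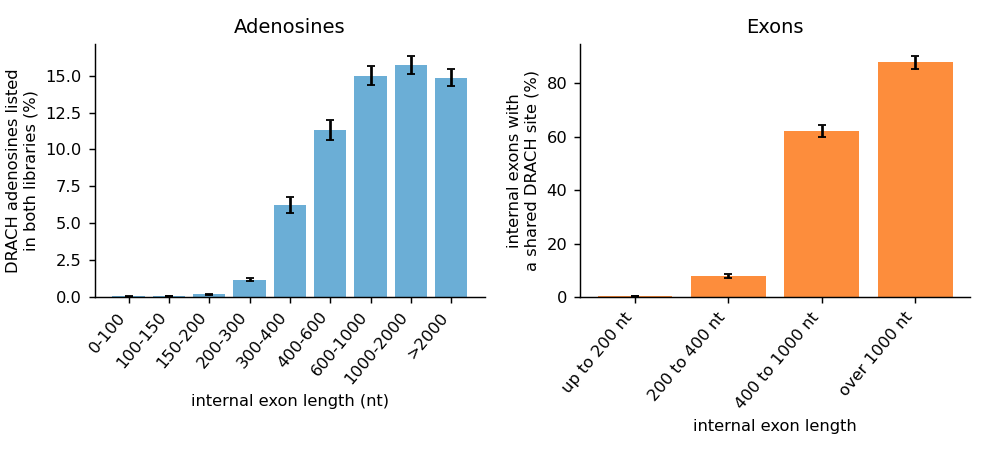
Left, percent of DRACH adenosines of internal exons of the carrying transcripts that were listed in both libraries, by exon length. Right, percent of internal exons of the same transcripts with at least 1 DRACH adenosine that carried a shared DRACH site, with 95% Wilson intervals. Transcripts without a member are left out, which raises these shares. Both rise with length, from 0.0442% of adenosines in exons up to 100 nt and 0.255% of exons up to 200 nt to 14.9% of adenosines in exons over 2000 nt and 88.0% of exons over 1000 nt.

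Distance from junctions was then combined with distance from the stop codon. More than 200 nt from any junction 16.8% of DRACH adenosines in the coding sequence of internal exons were listed in both (16.4% to 17.3%), 15.0% in the coding sequence of last exons before its final 200 nt, and 16.5% in those final 200 nt (15.7% to 17.3%). The share was 20.7% in the first 200 nt of the 3′ UTR (20.1% to 21.2%), 9.78% from 200 to 1000 nt and 3.26% beyond. For GGACT the same places gave 33.9%, 23.2%, 25.2%, 39.5%, 28.6% and 14.9%, so that internal coding exons stood further above last coding exons for this 5-mer than for all DRACH. Where the stop codon lay before the last exon, the 200 nt after it had 11.6% listed in both (10.02% to 13.4%), against 18.3% where it lay up to 100 nt into the last exon, 21.1% at 100 to 400 nt and 19.04% beyond 400 nt. For GGACT these places gave 32.4% (22.9% to 43.7%), 41.5%, 41.6% and 31.2%, so that the first was not below the last. Reads over the distal part of an annotated 3′ UTR are not given in the files, and the part of read coverage in the fall beyond 1000 nt was not tested.

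Some members sit in the stop codon itself. Of 1032 DRACH adenosines that form the last base of a stop codon 70 were listed in both, 6.78% (5.40% to 8.48%), 49 of 661 in TGA and 21 of 371 in TAA codons. The 6 in the genes with the most members are printed to show that the adenosine is shared between the stop codon, in capitals, and the DRACH 5-mer.
Arhgap21: gactcctcccTGActttaagctggg
Lrrn1: ttacatgtggTAActcagtgggtgt
Mdga2: ccctcgaaggTGAccttatcctggc
Ccser2: aggcccacagTGActacacagttca
Clmp: ccaaactgtcTGActtagagtggac
Dyrk1a: agctagctcgTGActacattgaaac
They lie at chr2:20848700-20848724 (minus), chr6:107569381-107569405 (plus), chr12:66471503-66471527 (minus), chr14:36879656-36879680 (minus), chr9:40782598-40782622 (plus) and chr16:94692189-94692213 (plus), each in the last exon. Arhgap21 encodes a GTPase-activating protein and had 38 members in all, Lrrn1 a leucine-rich neuronal membrane protein with 35, Mdga2 a regulator of synaptic adhesion with 33, and Dyrk1a a protein kinase with 23. The Clmp site is also 1 of the members in its window above.

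In coding sequence 48.2% of members lay at codon position 2 (47.4% to 49.0%), 26.2% at position 1 and 25.6% at position 3, against 49.1%, 28.2% and 22.8% of DRACH adenosines in neither list. Position 3 was thus somewhat more frequent and position 1 less frequent among members. A DRACH adenosine at position 2 makes the codon GAC or AAC where its 5-mer lies inside 1 exon. As 5-mers were read on the genome, 51 adenosines in TAC and 23 in CAC codons were counted too, with 0 listed in both. GAC, for aspartate, held 34.7% of coding members, ACT for threonine 17.4%, AAC for asparagine 13.5%, GAA for glutamate 8.81% and GGA for glycine 7.98%. Of adenosines in ACT codons 11.0% were listed in both, against 3.07% in ACA and 1.64% in ACC codons, whose final base is that of the 5-mer. Within GAACT the share was 13.5% at position 1, 12.9% at position 2 and 10.2% at position 3 (9.53% to 10.8%), and within GGACT 12.7%, 11.3% and 10.5%.

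Members were clustered. Another member lay within 20 nt on the same strand for 20.8% of them (20.4% to 21.2%), and within 100 nt for 57.9%. The same shares within their own group were 4.31% and 12.4% for cerebellum-only sites and 12.9% and 37.9% for cerebrum-only sites. The groups differ in size, with 39903 members, 9371 cerebellum-only and 48113 cerebrum-only sites, and only neighbours of the same group were counted. Both bear on such shares, and their part was not tested. In all, 497 windows of 30 nt inside 1 exon held 3 or more members and 16 held 4 or more.

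The share of GGACT adenosines listed in both was taken by distance to the nearest other member of the same transcript. In last exons it was 74.6% (71.2% to 77.7%) where that member was up to 20 nt away, 47.6% at 20 to 50 nt, 36.6% at 50 to 100 nt, 28.2% at 100 to 200 nt, 19.5% at 200 to 400 nt, 12.5% at 400 to 1000 nt and 5.46% further away. In internal exons over 400 nt the same steps ran from 78.8% to 6.99%. A member alone on its transcript has no such distance and was left out, while the unlisted adenosines of its transcript were kept. This lowers the shares by construction, also in the furthest step, so the steepness of the fall is partly set by the counting. Neighbouring positions share reads, and read coverage is not in the files, so its part in this gradient was not tested. Distances between members had no single preferred step: of pairs of DRACH adenosines 4 to 30 nt apart, between 1.63% and 2.18% were members at both ends at every distance.

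**Figure D4:**
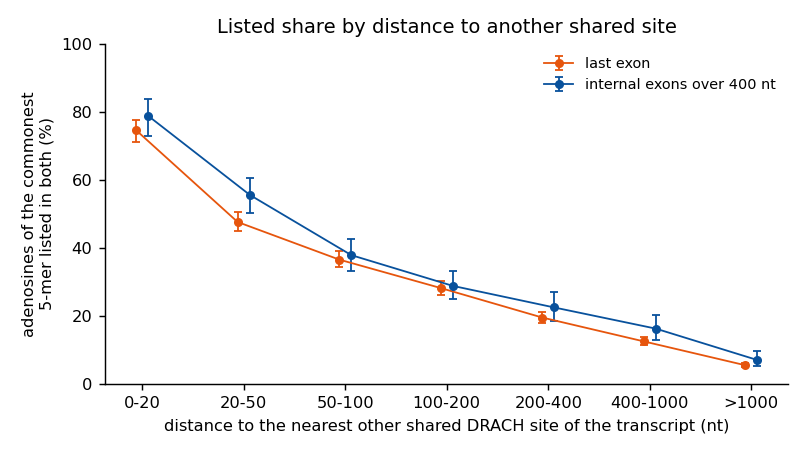
Percent of GGACT adenosines listed in both libraries, with 95% Wilson intervals, by distance to the nearest other shared DRACH site of the same transcript, for last exons and for internal exons over 400 nt. Both lines fall from above 74% within 20 nt to under 7% beyond 1000 nt, and their intervals overlap in every bin. Members alone on their transcript are left out while unlisted adenosines of these transcripts are kept, which lowers the shares by construction.

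The bases around GGACT members differed from those around GGACT adenosines of the same transcripts in neither list. Guanine was less frequent at all 56 positions compared, from 30 nt before to 30 nt after outside the 5-mer, both in 3′ UTRs (mean 19.2% against 25.95%) and in coding sequence (21.4% against 27.4%). The largest differences of thymine and of guanine in 3′ UTRs stood just before the 5-mer. At 3 nt before the member thymine was at 45.9% against 27.6% and guanine at 16.2% against 33.3%, and at 4 nt after it thymine was at 40.9% against 28.2%. In coding sequence thymine at 3 nt before was at 39.9% against 32.3%. Cytosine was higher at 52 of the 56 positions in 3′ UTRs and at 54 in coding sequence.

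The A+T share of the 50 nt on either side, without the 5-mer, averaged 56.1% for GGACT members in 3′ UTRs (SD 9.85 over 3157 sites) and 52.8% for unlisted GGACT adenosines (SD 9.39 over 8402), so the distributions overlap widely. Over all DRACH 5-mers in 3′ UTRs the order was the opposite, at 56.69% for members and 57.27% for unlisted adenosines. Taken by bins, the share of 3′ UTR GGACT adenosines listed in both was 14.4% where A+T was up to 35% (10.2% to 19.95%), 17.7% at 45 to 50%, 23.3% at 55 to 60%, 32.1% at 65 to 70% and 35.6% above 70% (32.1% to 39.2%). In coding sequence it was 8.53% up to 35%, 19.2% at 65 to 70% (14.6% to 24.9%) and 12.5% above 70%, where only 3 of 24 adenosines were listed in both (4.344% to 31.004%).

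Predicted folding gave 2 readings. Each adenosine of the 3 most frequent 5-mers was folded with 50 nt on either side, as read from the genome, and the probability of being unpaired was averaged. Windows near a junction therefore hold intron sequence that the mRNA lacks. Few members lie there: in internal exons 29 of 3811 GGACT adenosines up to 25 nt from a junction were listed in both, and 46 of 3262 at 25 to 50 nt. The coding means thus compare partly unlike windows, and the part of this was not tested. From 3 to 30 nt away the bases around GGACT members were unpaired more often, with means of 0.472 in 3′ UTRs against 0.437 around unlisted ones, and of 0.472 against 0.437 in coding sequence. The member adenosine itself was not more open, with a mean of 0.429 (SE 0.00646) in 3′ UTRs against 0.466 (SE 0.00424), and of 0.489 against 0.519 in coding sequence. For GAACT and AGACT in 3′ UTRs the site means were 0.592 against 0.606 and 0.478 against 0.484. In bins of A+T the member mean in 3′ UTRs was below the unlisted mean in the 5 bins up to 65% and above it, at 0.426 against 0.408, over 65%. The standard errors treat sites as independent, which overlapping windows are not.

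Members fell on 6592 of 20714 coding genes with a complete model, or 31.8%. The median gene among them had 3 members (quartiles 1 and 7), 1840 genes had 1 member, 1075 had 10 or more and 322 had 20 or more. The 660 genes with the most members held 40.5% of members on coding genes. Median density was 0.833 members for each kb of exon (quartiles 0.429 and 1.59). In 395 of 6987 genes with DRACH sites in both lists no position was shared, and in 3454 carrying genes every cerebellum DRACH site was a member. Expression is not given in the files and its part in the number of members of a gene was not tested, and in whole tissue fewer cells of a type and less RNA per cell cannot be told apart.

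In each of the 10 genes with the most members most of these were coding, from 49 of 69 in Zfhx3 to 85 of 87 in Pclo. Fat4, a giant protocadherin gene of the planar cell polarity system, had 104 members, from 112 DRACH sites in the cerebellum list and 152 in the cerebrum list, and 96 of the members were coding. Its relative Fat3 had 76 members, 73 of them coding, from 88 and 115 sites. Pclo, which encodes a scaffold of the presynaptic active zone, had 87 members from 102 and 113 sites.
Among transcription and chromatin regulators Zfhx3 had 69 members, Nsd1 68 and Zfhx4 67. Zfhx3 and Zfhx4 had more DRACH sites in the cerebellum list, at 98 and 104, than in the cerebrum list, at 75 in both, while Nsd1 had 74 and 89. Apc, whose product scaffolds the complex that degrades beta-catenin, had 67 members, Ptprz1 61, the zinc finger gene Zfp292 60 and Son 57. In these 10 genes between 17.0% and 28.6% of DRACH adenosines were members.

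Taken against the number of DRACH adenosines, genes with 1691 to 5444 nt of exon led among the 1075 genes with 10 or more members. In Atxn7l3b 26 of 52 DRACH adenosines were members (50.0%), 24 of them in the 3′ UTR. Magee1 followed with 22 of 48 (45.8%), 21 of them coding, Tsc22d1 with 30 of 69 and Nxph1, which encodes a ligand of neurexins, with 28 of 65. Cdk5r1, which encodes the neuronal activator of the kinase Cdk5, had 30 of 70, with 24 in the 3′ UTR, and Eid1 had 12 of 28, all in the 3′ UTR. The membrane protein genes Lrrn3, Lrrc4b and Slitrk5 had 39 of 95, 15 of 38 and 41 of 106, and the metabotropic glutamate receptor gene Grm3 25 of 64. Lrrn3 was the densest of these by length, with 10.1 members for each kb of exon. In each of the 10 genes the cerebellum list held at most 5 sites more than the members.

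Gene lists, which were chosen with earlier results of these data known, are described by counts beside those of all coding genes, where 31.8% of genes carried a member and 2.60% of DRACH adenosines were members. Among synaptic adhesion genes 28 of 30 carried members, 589 in all, and 12.7% of their DRACH adenosines were members. Nrxn3 and Nlgn3, of the neurexin and neuroligin pair that bridges the synaptic cleft, had 38 and 36, and Lrrc4c, a postsynaptic ligand of netrin-G1, had 36. Lrrtm1 and Cntnap1 had none. Among genes of the neuronal cytoskeleton 21 of 22 carried members, with 51 each in the microtubule-associated protein genes Map1a and Map1b and 50 in Ank2, a spectrin-binding ankyrin. In Map1a all 51 were coding and in Mapt, which encodes tau, 19 of 20 were in the 3′ UTR. Sptan1 had none.

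Of 30 chromatin regulator genes 27 carried 516 members (9.69% of DRACH adenosines), led by the histone methyltransferase genes Nsd1 (68), Kmt2a (50), Kmt2d (40), Kmt2c (38) and Setd2 (37), whose members in Kmt2c and Setd2 were all coding. Ezh2, Smarca2 and Hdac5 had none. Of 32 neural transcription factor genes 25 carried members, with 27 in Myt1l, 26 in Pou3f3 and 25 in Meis2, and none in Pax6, Neurod1 and Neurog2 among others. Of 30 ion channel and transmitter receptor genes 25 did, with 43 in the NMDA receptor gene Grin2b, 34 in Grm5 and 31 in the potassium channel gene Kcnd2, and none in 5 genes, among them Gria1, which had 28 DRACH sites in the cerebrum list and 0 in the cerebellum list. Of 31 axon guidance genes 25 did, led by the semaphorin receptor gene Plxna4 with 27 and by Sema6a with 23, while Slit1, Slit2 and Slit3, which encode repellent ligands of Robo receptors, had none. Robo1 had 16.

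The machinery of the mark carried it too. Of the 8 writer complex genes 7 had members, with 20 in Wtap, 16 in Rbm15b, 15 in Cbll1, 11 in Rbm15, 10 in Virma, 8 in Zc3h13 and 1 in Mettl3, and Mettl14 had none from 158 DRACH adenosines. Among readers and demethylases the cytoplasmic readers Ythdf1, Ythdf2 and Ythdf3 had 11, 18 and 22, the nuclear reader Ythdc1 had 2, and the demethylase genes Fto and Alkbh5 had 7 and 1. Ythdc2, Igf2bp1, Igf2bp2, Igf2bp3, Hnrnpa2b1 and Fmr1 had none. In the signalling list Apc held 67 of 143 members and 19 of 30 genes carried any, among them the Frizzled receptor genes Fzd3 with 14 and Fzd1 with 12.

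Of 24 cell cycle and replication genes none carried a member, from 2494 DRACH adenosines, of which 3 would make 0.120%. In the cerebrum list 16 of these genes had DRACH sites, with 14 in the proliferation marker Mki67 and 13 in Ccnd2. None of the 24 had a DRACH site in the cerebellum list, so by the rule none could hold a member. Of 34 cytosolic ribosomal protein genes 2 carried members, 3 in all, with 2 of them in Rpl4, and of 31 nuclear genes of oxidative phosphorylation 8 did, with 15 members in all. Of 15 immediate early genes 4 did, namely Jun with 5, Jund with 4 and Ier5 and Dusp1 with 2 each, while Fos, Egr1 and Arc had none. Ribosomal protein genes had a median exon length of 964.5 nt, against 2773.5 nt over all coding genes, and synaptic adhesion genes of 7016 nt.

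**Figure D5:**
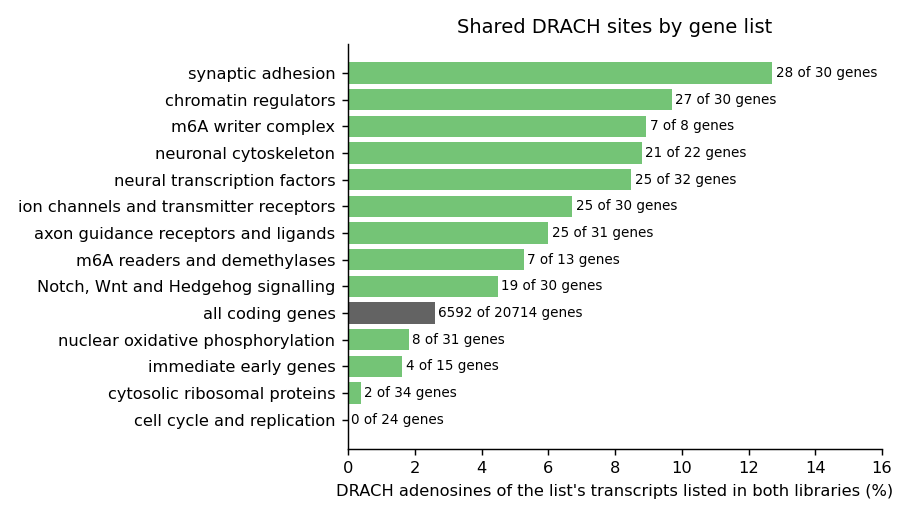
Percent of the DRACH adenosines of each gene list's transcripts that were listed in both libraries, with the number of genes that carry a shared DRACH site. Synaptic adhesion genes stand highest at 12.7% and cell cycle and replication genes at 0, with all coding genes (grey) at 2.60%.

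A further 788 members lay on 281 genes without a coding transcript. Tug1, a long noncoding RNA gene of the nervous system, had 78 members from 82 DRACH sites in the cerebellum list and 99 in the cerebrum list. Xist, the RNA that silences an X chromosome in females, had 42 from 49 and 50, and Kcnq1ot1, an imprinted antisense RNA, had 31 from 40 and 72. Meg3, an imprinted RNA expressed from the maternal allele, had 25 from 28 and 36, and 1500004A13Rik had 19 from 20 and 38, as many as Snhg14.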

How the data were processed

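GLORI site lists of 2 libraries, 1 cerebellum and 1 cerebrum, were used. The deposited files hold positions only, with no counts or levels. Per the labels and the study's methods the authors aligned reads to mm10 and to a PWK-substituted mm10 with GLORI-tools, joined the calls and kept sites above a minimum methylation rate and read count. Depth is not in the files. The cerebrum file's name carries the study's short form for cerebellum, and tissue was taken from the labels. 5-mers were read from the GRCm38 RefSeq FASTA on the genome, and sites were placed on complete coding models of GENCODE for that build (not the release the authors named), taking the longest covering isoform. The background was every DRACH adenosine of transcripts carrying a member. Folding used ViennaRNA 2.7.2. Placement was tested on simulated positions. No test was run. Named genes are the 10 with most members, the 10 with the highest share of DRACH adenosines among those with 10 or more, the 5 noncoding genes with most, and members of gene lists. Members and lists were chosen with earlier results of these data known. Some items are not reported here.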

Additional observations from a re-analysis of the deposited data

How the results depend on the processing

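Of 43 alternative values 24 stayed within the interval of the value reported, or within 1.5 times it for counts, and 19 moved. Those that moved include all values at other window widths, which are different quantities, so the tally is not a measure of robustness. The fold near the stop codon stayed above 1 in the alternatives that recomputed it. Choosing the isoform with the longest coding sequence, adding members without A in mm10 (39948) or dropping exons of more than 1 coding gene moved none. Matching positions within 1 nt again gave 39903 members and 6592 genes, which was fixed in advance. C follows every DRACH adenosine, so DRACH sites of the same strand cannot lie 1 nt apart. These values are counted among the 24 and say nothing about robustness. Without the 100 genes with the most members the 3′ UTR share was 59.8%, the last exon share 73.97%, the share within 200 nt of the stop codon 24.4% with a fold of 2.52, the share of GGACT adenosines listed in both 14.9%, the junction share 6.53% and the share with another member within 20 nt 20.04%. Without masked repeats the 3′ UTR share was 54.6% and the last exon share 70.2%. Up to 100 nt before or after the stop codon the share was 12.4% and the fold 2.47, and with 400 nt 36.3% and 2.01. Within 50 nt of a junction lay 1.58% of members and within 200 nt 19.1%. Another member lay within 10 nt of 9.71% and within 50 nt of 41.0%. Against transcripts with any listed site the fold was 2.14 and the GGACT share 9.82%, which that wider background lowers by its construction. No paired analysis was possible because each tissue has 1 library. Without replicates or depth, and with 1 animal, the error between animals is unknown and no level of methylation was compared.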
